A study of Mus musculus with 6 samples.

Results

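Interferons are secreted proteins that warn cells of infection. Type I interferons act through the receptor pair encoded by Ifnar1 and Ifnar2, and interferon gamma acts through the pair encoded by Ifngr1 and Ifngr2. The receptors activate Janus kinases, which phosphorylate STAT proteins. STAT2 and IRF9 are parts of the complex that binds interferon-stimulated response elements and switches on interferon-stimulated genes, among them RNA sensors, antiviral effectors and the brake Usp18. Blood stem cells hold some of these genes at a standing level, and interferons are known to draw resting stem cells into division.

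The genes described here are 48 interferon receptors, transcription factors and interferon-stimulated genes, listed by symbol. The list was chosen with earlier results of these data known, so no test was made over it. Of the 48 genes, 47 matched 1 row each by Ensembl ID among the 41128 genes of the deposited table. Gbp6 had no match and is not analysed here. All 47 had a mean level of at least 1 RPM over the 6 libraries and were among the 13597 genes tested. RPM here means reads of a gene scaled to a common library size, obtained by removing the offset of 1 that the deposited values carry. The members fell into 4 receptors, 4 transcription factors, 5 RNA sensors, 3 Ifitm genes and 31 effectors.

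RNA came from bone marrow of C57BL mice that had been given either DMSO, the vehicle, or YH250, a small molecule that the submitters call a p300/catenin antagonist. The dose was 2 mg per kg under the skin and marrow was collected 16 h later. Both groups were sorted as Lin-, then Sca1+ and c-Kit+, negative for CD41 and CD48 and positive for CD150, the surface pattern of long-term repopulating hematopoietic stem cells. Each group had 3 libraries, numbered 1 to 3. The labels give no sex or age of the mice and do not say that the libraries came from separate animals, so every p-value measures only the spread between these libraries.

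At 1 RPM a library held 22.0 to 31.2 reads, which limits the precision of the lowest members. The stem cell and sort genes Kit, Ly6a, Slamf1, Procr, Hlf and Mecom were detected in every library, although Slamf1, which encodes the required CD150, lay at only 0.52 RPM in DMSO 2. Cd48, whose protein the sort was to exclude, had 10.2, 31.5 and 258 RPM in DMSO 1, 2 and 3 against 13.1, 66.9 and 252 RPM in YH250 1, 2 and 3. Itga2b, which encodes CD41, also to be excluded, ran the other way across the numbers. It had 43.7, 15.3 and 5.65 RPM in DMSO 1, 2 and 3 against 37.4, 26.3 and 7.13 RPM in YH250 1, 2 and 3. Dntt, a gene of lymphoid-primed progenitors, had 5.76, 38.3 and 633 RPM in DMSO 1, 2 and 3 against 10.2, 153 and 614 RPM in YH250 1, 2 and 3. By Cd48 and Dntt the libraries numbered 3 go against the labelled sort, so the main counts are also given without both of them. Those numbered 2 were also above number 1 in Cd48 and Dntt, in YH250 most of all for Dntt, and departed from it by other genes too. Flt3, also a progenitor gene, had 240 and 224 RPM at number 2 (DMSO, then YH250), against 26.6 and 28.9 RPM at number 1. Cd34 had 505 and 501 RPM, against 158 and 168 RPM. Il7r, of the same list, was low at both numbers (1.01 to 9.46 RPM). Slamf1 had 35.5 and 31.5 RPM at number 1 and 0.52 to 4.69 RPM in the other libraries. The libraries numbered 3 also held the most reads from plasmacytoid dendritic cell markers (568 and 552 RPM summed over 6 genes, against 110 to 195 RPM in the other 4 libraries). In a principal component analysis YH250 2 scored -79.32 on the second component, where the other 5 libraries scored -0.85 to 36.24. Its stromal markers summed to 270.2 RPM over 5 genes, mostly from Cxcl12 (202 RPM) and Lepr (58.2 RPM), against 15.1 to 49.1 RPM elsewhere. Its endothelial markers summed to 151 RPM, against 72.2 to 99.0 RPM. Of the 5 endothelial genes only 2, Emcn and Plvap, were highest in YH250 2, and Pecam1, Cdh5 and Kdr were not. Results are therefore given with and without YH250 2. In bulk RNA, fewer cells of a type and less RNA per cell cannot be told apart.

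Of the 47 members, 37 had a promoter in the RefSeq table on build GRCm38.p6, taken as 250 bases before to 50 after each start. The core of the interferon-stimulated response element, spelled GAAANNGAAA and searched on both strands, was present for 17 of these 37 genes (45.9%), against 3.99% of all 27025 genes in that table. It was found for 3 of 3 RNA sensors, 11 of 23 effectors, 2 of 3 Ifitm genes, 1 of 4 transcription factors and 0 of 4 receptors. The gamma-activated site core TTCNNNGAA, its own reverse complement, was present for 13 of 37 (35.1%), against 9.55% of all genes. Both motifs can share bases, and a match describes letters only. Members with the response element core had a median log2 difference between treatments of 0.27 (17 genes, 13 higher in YH250), and members without it 0.33 (20 genes, 15 higher). This difference was not tested, and the 10 members with no entry in the table, among them Usp18, Ifi27l2a, Oas2 and Zbp1, are in neither group. The promoters of the 4 members of smallest unadjusted p among those with the core follow, as the 250 bases before the start, 5′ to 3′ on the gene's strand, with every match in capitals. The strand is minus for Bst2 and Oas1a and plus for Ifit3 and Gbp2. In Bst2 and Oas1a, 2 matches overlap each other, in Ifit3 they lie apart, beginning 156 and 122 bases before the start, and Gbp2 holds 1.

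Bst2 (chr8:71537473-71537722): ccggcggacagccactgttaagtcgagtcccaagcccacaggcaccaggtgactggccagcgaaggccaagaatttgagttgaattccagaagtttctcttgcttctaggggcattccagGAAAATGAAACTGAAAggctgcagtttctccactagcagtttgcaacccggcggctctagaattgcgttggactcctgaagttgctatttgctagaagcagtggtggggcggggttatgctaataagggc
Ifit3 (chr19:34583279-34583528): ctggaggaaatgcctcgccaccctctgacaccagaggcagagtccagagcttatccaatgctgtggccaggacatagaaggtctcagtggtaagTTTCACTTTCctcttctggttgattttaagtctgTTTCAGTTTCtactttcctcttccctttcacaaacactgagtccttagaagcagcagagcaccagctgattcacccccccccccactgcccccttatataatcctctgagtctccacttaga
Gbp2 (chr3:142620413-142620662): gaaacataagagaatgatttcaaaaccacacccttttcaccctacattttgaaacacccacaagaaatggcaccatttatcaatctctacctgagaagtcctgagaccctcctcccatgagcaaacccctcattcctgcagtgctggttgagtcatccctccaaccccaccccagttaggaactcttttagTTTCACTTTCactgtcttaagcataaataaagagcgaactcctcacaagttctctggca
Oas1a (chr5:120907526-120907775): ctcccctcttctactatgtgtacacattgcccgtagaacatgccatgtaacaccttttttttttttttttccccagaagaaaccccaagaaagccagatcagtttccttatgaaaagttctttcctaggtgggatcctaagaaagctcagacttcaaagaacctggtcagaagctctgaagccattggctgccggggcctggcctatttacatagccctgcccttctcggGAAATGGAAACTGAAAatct

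Across the set, levels were higher in YH250 more often than lower, but no single gene passed the test. By mean log2 level, 36 of the 47 members were higher in YH250 and 11 were lower, that is 76.6% higher against 51.7% of all tested genes. The median log2 difference, YH250 minus DMSO on the log2(RPM + 1) scale, was 0.32 over the members and 0.02 over all tested genes. Differences ran from -0.53 for Herc6 to 1.58 for Ifi27l2a, and 4 exceeded 1, those of Ifi27l2a, Irf7, Usp18 and Cmpk2. By limma with Benjamini-Hochberg adjustment across the tested genes, 0 members and 0.0% of all genes had an adjusted p under 0.05, and the smallest adjusted p was 0.999. With the replicate number as a block, again 0 members and 0.0% of all genes were called (limma, smallest adjusted p = 0.66). At an unadjusted p under 0.05, 3 members were higher (6.38%, against 0.934% of all genes) and 0 lower (against 0.765%). Without DMSO 1 the count was 1 (0.721% of all genes), without YH250 1 it was 5 (0.993%), without YH250 2 it was 1 (0.485%) and without YH250 3 it was 6 (1.43%). With the block there were 10 higher (21.3%, against 4.46%) and 0 lower (against 2.99%), the 10 being Irf7, Usp18, Cmpk2, Ifi27l2a, Ifngr1, Gbp2, Bst2, Ifit1, Isg20 and Oas2.

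**Figure D1:**
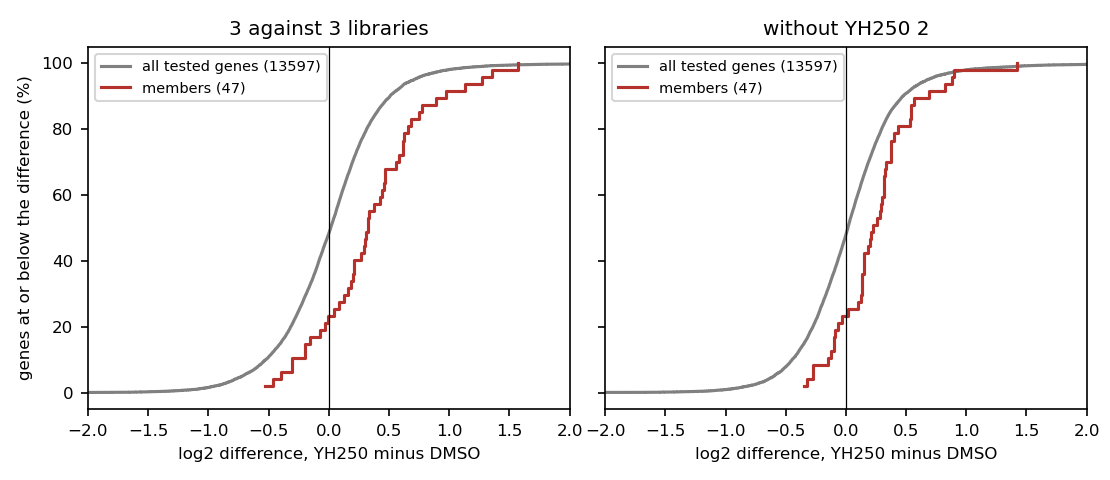
Cumulative share of genes (vertical axis, percent) at or below a given log2 difference between YH250 and DMSO (horizontal axis), for the 47 members in red and all 13597 tested genes in grey, with all libraries on the left and without YH250 2 on the right. The axis ends at 2 in both directions. The member curve lies to the right of the grey curve over most of its length, with medians of 0.32 and 0.02 on the left and 0.23 and 0.02 on the right.

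Library by library, in 6 members every YH250 library was above every DMSO library (12.8%, against 3.79% of all tested genes): Usp18, Cmpk2, Isg20, Bst2, Ifi35 and Zbp1. Leaving out a library, the count was 17 without DMSO 2 (7.38% of all genes), 10 without DMSO 3 (13.5%) and 17 without YH250 3 (9.46%). In Herc6 alone every YH250 library was below (2.13% of members, against 3.68% of genes). With 3 against 3 libraries an exact two-sided permutation test of 1 gene cannot go below p = 0.1, so such a separation reaches no threshold. Comparing libraries of the same number, 21 members were higher in YH250 at all 3 numbers (44.7%, against 16.1% of genes) and 5 were lower at all 3 (10.6%, against 15.0%). The members' median difference was 0.38 at number 1, 0.52 at number 2 and 0.20 at number 3. Over all tested genes it was 0.06, 0.06 and -0.06. The libraries numbered 1 had the least Cd48 and Dntt but the most Itga2b. Without both libraries numbered 2, 17 members were higher without overlap (against 11.3% of all genes), and the replicate block without them gave 10 at an unadjusted p under 0.05 (limma, against 4.23%). Without both libraries numbered 3, 36 of 47 members were higher in mean (against 54.0% of all genes), the median difference was 0.41 (0.05 over all genes), 8 members were higher at an unadjusted p under 0.05 (limma, against 2.13%) and 21 were higher without overlap (against 19.7%). The difference was then 1.48 for Usp18, 1.51 for Irf7, 1.28 for Cmpk2, 0.68 for Ifngr1 and 0.60 for Isg20.

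**Figure D2:**
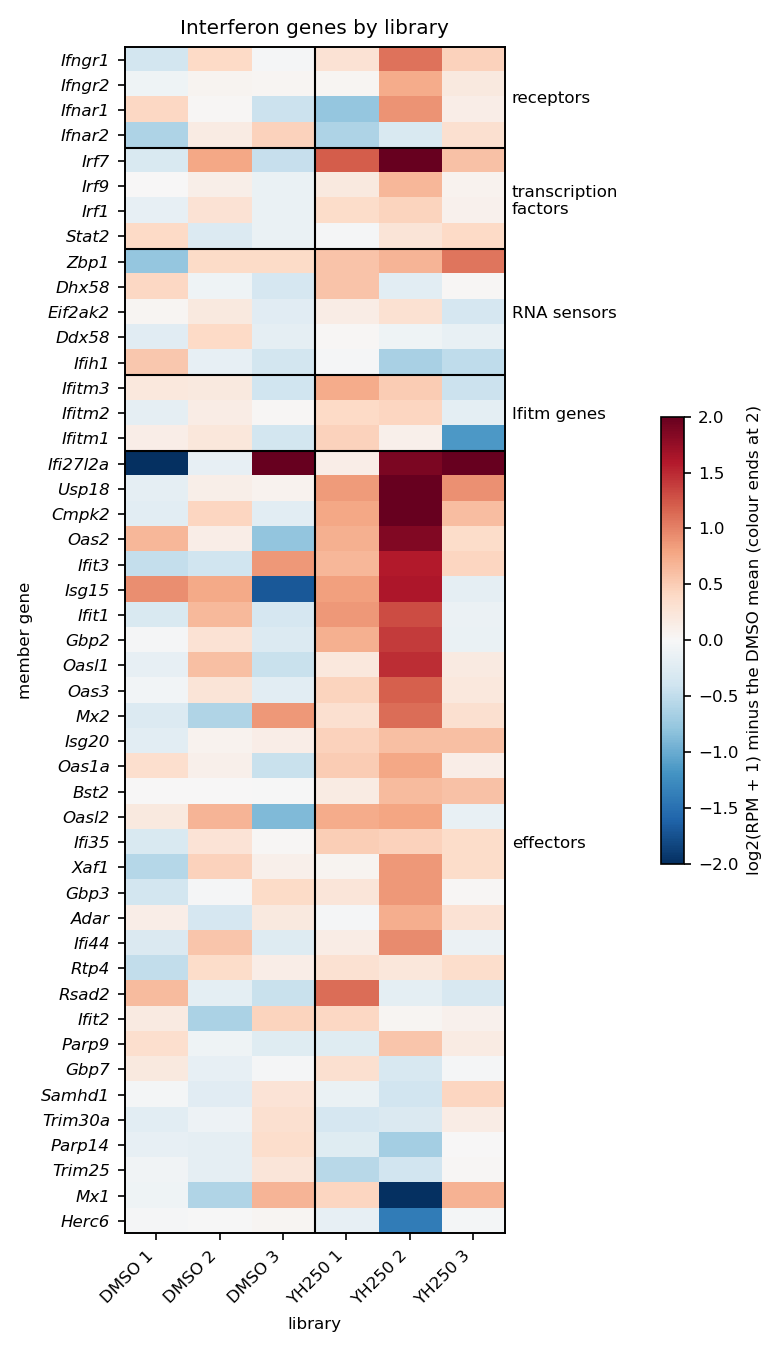
Level of each of the 47 members (rows, by role and then by size of difference) in each library (columns), coloured by log2(RPM + 1) minus the mean of the 3 DMSO libraries, red above and blue below, with the colour ending at 2. YH250 2 holds the highest value of 26 members and the lowest of 6, Herc6 and Mx1 among them, and Ifi27l2a and Isg15 differ widely among the DMSO libraries alone.

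The 4 receptor genes had differences between -0.20 and 0.61, and the gamma receptor genes had the larger ones. Ifngr1, which encodes the ligand-binding chain of the gamma receptor, stood at 58.7, 100.1 and 75.0 RPM in DMSO 1, 2 and 3 against 92.9, 163 and 106 RPM in YH250 1, 2 and 3. The groups overlapped only through DMSO 2, and each YH250 library was above the DMSO library of its number. The log2 difference was 0.61 ± 0.29 (SE) (limma unadjusted p = 0.067, or 0.0042 with the replicate block), and 0.38 without YH250 2. Ifngr2, the signalling chain, had 18.3, 20.4 and 20.1 RPM in DMSO 1, 2 and 3 against 20.2, 33.4 and 22.6 RPM in YH250 1, 2 and 3. YH250 2 was above the rest, while the other 5 libraries lay close together (log2 difference 0.33 ± 0.29, SE, and 0.12 without YH250 2).

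The type I receptor chain Ifnar1 had 44.1, 33.6 and 24.3 RPM in DMSO 1, 2 and 3 against 18.9, 62.7 and 36.3 RPM in YH250 1, 2 and 3. Its lowest and its highest value were both in YH250 libraries, and its difference of 0.09 ± 0.43 (SE) turned to -0.32 without YH250 2. Ifnar2, the chain that binds interferon first, stood at 66.3, 114 and 141 RPM in DMSO 1, 2 and 3 against 66.5, 83.0 and 127 RPM in YH250 1, 2 and 3. The libraries numbered 1 were the lowest of both groups and those numbered 3 the highest of both groups, and the difference was -0.20 ± 0.34 (SE). Over the 4 receptors the median difference was 0.21 with YH250 2 and -0.01 without it.

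All 4 transcription factors had higher means in YH250, with a median difference of 0.31. Irf7, the amplifier of type I interferon production and itself interferon-stimulated, had 10.2, 22.7 and 9.06 RPM in DMSO 1, 2 and 3 against 31.3, 65.8 and 19.8 RPM in YH250 1, 2 and 3. YH250 2 was far above the rest, YH250 1 was next, and YH250 3 lay between DMSO 2 and the other DMSO libraries. The mean ± SD was 14.0 ± 7.55 RPM in DMSO and 39.0 ± 23.9 RPM in YH250 (n = 3 each). The log2 difference of 1.36 ± 0.49 (SE) was positive at each number (1.52, 1.50 and 1.05). Its unadjusted p from limma was 0.022, or 0.00039 with the replicate block, which left an adjusted p of 0.66. Without YH250 2 the difference was 0.90. Exons of Irf7 overlap those of Phrf1 on the other strand, and the sources used here do not say whether counting used strand.

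Irf9, the DNA-binding part of the complex that holds STAT2, stood at 65.3, 70.9 and 59.5 RPM in DMSO 1, 2 and 3 against 74.4, 104 and 68.6 RPM in YH250 1, 2 and 3. Only YH250 2 stood clear of the DMSO range by more than a few RPM, and the difference was 0.31 ± 0.24 (SE) with it and 0.13 without it. Irf9 shares exon sequence with Rnf31 on its own strand. Irf1, a factor that gamma interferon induces, had 75.7, 104 and 77.4 RPM in DMSO 1, 2 and 3 against 109.7, 116 and 89.9 RPM in YH250 1, 2 and 3. Each YH250 library exceeded its DMSO partner, but the groups overlapped through DMSO 2 (log2 difference 0.30 ± 0.23, SE). Stat2, a transducer of type I signalling, had 22.8, 13.9 and 15.3 RPM in DMSO 1, 2 and 3 against 16.6, 20.4 and 22.7 RPM in YH250 1, 2 and 3. DMSO 1 held the highest value, and the difference of 0.21 ± 0.32 (SE) was within its error.

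The 5 RNA sensors had no common direction, with a median difference of 0.04 and 3 of 5 higher in mean (a median of -0.05 with every library rescaled to the same sum over genes). Zbp1, a sensor of Z-form nucleic acid that can trigger cell death, had 3.80, 9.64 and 9.70 RPM in DMSO 1, 2 and 3 against 11.1, 12.1 and 16.2 RPM in YH250 1, 2 and 3. Every YH250 library was above every DMSO library, and the difference was 0.77 ± 0.44 (SE) (limma unadjusted p = 0.11). It was as large without YH250 2, at 0.82, and 1.34 at number 1. Ifih1, which encodes the long double-stranded RNA sensor MDA5, was lower in mean in YH250, at 56.2, 34.0 and 29.5 RPM in DMSO 1, 2 and 3 against 37.5, 24.1 and 26.6 RPM in YH250 1, 2 and 3. Each YH250 library was below the DMSO library of its number, and YH250 1 alone lay above a DMSO library (log2 difference -0.40 ± 0.32, SE, limma unadjusted p = 0.24). Ddx58, which encodes RIG-I, stood at 47.8, 74.0 and 49.1 RPM in DMSO 1, 2 and 3 against 56.6, 52.3 and 50.2 RPM in YH250 1, 2 and 3. Dhx58, which encodes the helper LGP2, had 15.8, 10.9 and 8.92 RPM in DMSO 1, 2 and 3 against 17.7, 9.87 and 11.7 RPM in YH250 1, 2 and 3. Eif2ak2, which encodes the translation-blocking kinase PKR, had 36.6, 40.8 and 30.2 RPM in DMSO 1, 2 and 3 against 39.6, 44.3 and 28.0 RPM in YH250 1, 2 and 3. In these 3 the groups overlapped widely, and the differences were -0.07 ± 0.25 (SE), 0.13 ± 0.38 (SE) and 0.04 ± 0.27 (SE).

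The Ifitm genes, whose small membrane proteins block entry of viruses, were the most abundant members. Per kilobase of exon their mean levels were 841 (Ifitm2), 679 (Ifitm3) and 528 (Ifitm1) RPM per kb, next to 84.7 for Bst2, 81.6 for Ifi27l2a and 1.23 for Mx2, the lowest member. Ifitm1 had 637, 685 and 454 RPM in DMSO 1, 2 and 3 against 801, 627 and 262 RPM in YH250 1, 2 and 3. Ifitm2 had 444, 560.0 and 514 RPM in DMSO 1, 2 and 3 against 665, 681 and 439.9 RPM in YH250 1, 2 and 3. Ifitm3 had 464, 458 and 303 RPM in DMSO 1, 2 and 3 against 671, 568 and 296 RPM in YH250 1, 2 and 3. In all 3 genes the YH250 library was above its DMSO partner at number 1 and below it at number 3, and YH250 3 was the lowest library. The differences were -0.20 ± 0.39 (SE), 0.21 ± 0.23 (SE) and 0.27 ± 0.33 (SE), none above its error. The 3 genes lie side by side on chromosome 7 (Ifitm2 at 140954837 to 140955987, Ifitm1 at 140967221 to 140969825 and Ifitm3 at 141009586 to 141010770, GRCm38) and are alike in sequence, so reads shared between them could have been split.

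**Figure D3:**
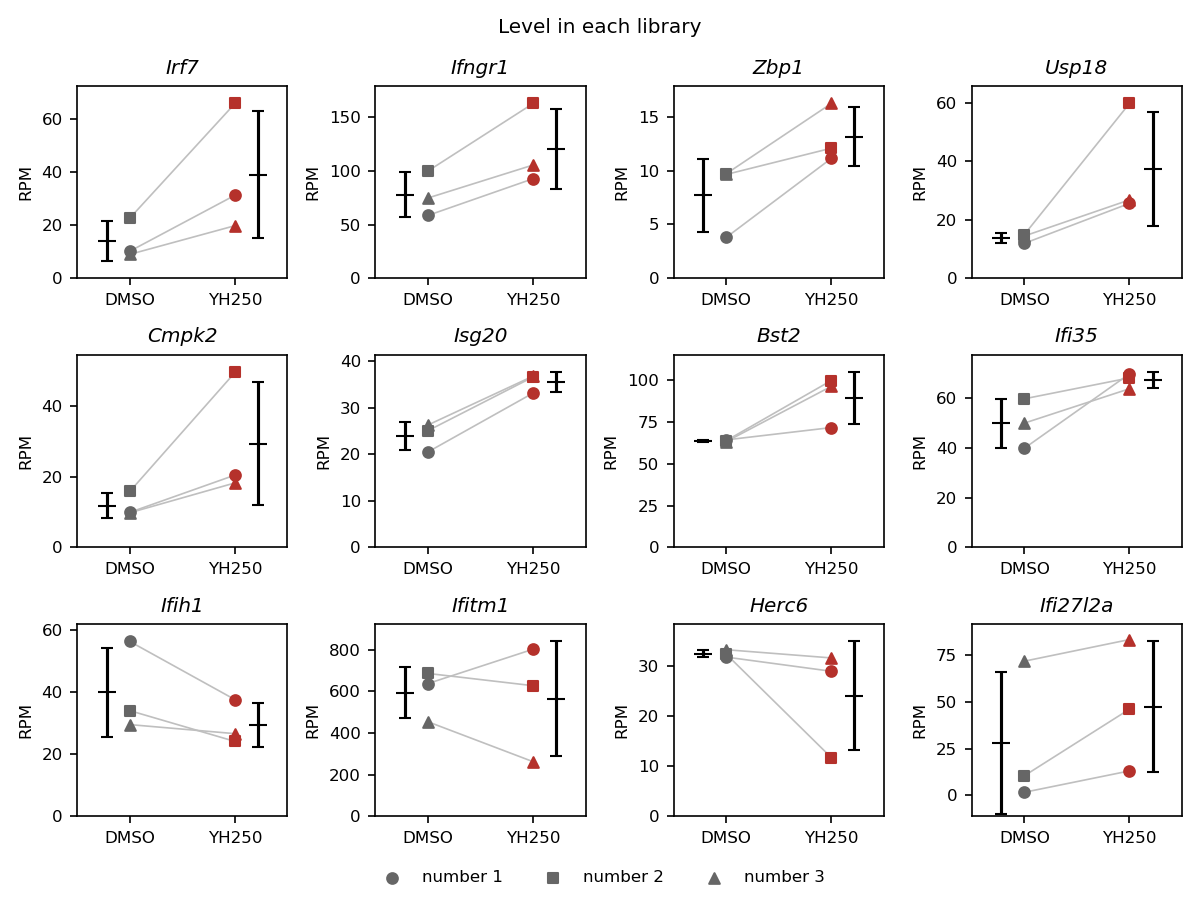
Level in RPM (vertical axis) of 12 members in each library, DMSO in grey and YH250 in red, with circles, squares and triangles for numbers 1, 2 and 3, lines joining libraries of the same number, and bars giving the mean ± SD of each group. Usp18, Cmpk2, Isg20, Bst2, Ifi35 and Zbp1 show no overlap between groups, whereas Ifi27l2a follows the replicate number more than the treatment.

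Of the 31 effectors, 24 were higher in mean in YH250, and the median difference was 0.44. Usp18, the protease that removes ISG15 and blocks the type I receptor, stood at 12.0, 15.0 and 14.5 RPM in DMSO 1, 2 and 3 against 25.6, 59.7 and 26.8 RPM in YH250 1, 2 and 3. The 3 DMSO libraries were close together, and even the lowest YH250 library was well above them. The mean ± SD was 13.8 ± 1.61 RPM in DMSO and 37.4 ± 19.4 RPM in YH250 (n = 3 each). The difference was 1.27 ± 0.37 (SE), the smallest unadjusted p of the set (limma, 0.0075, or 0.0014 with the block). Without YH250 2 it was 0.88, and Usp18 was then the only member under 0.05 (limma unadjusted p = 0.017).

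Cmpk2, a nucleotide kinase gene that neighbours Rsad2 on chromosome 12, had 9.90, 15.8 and 9.79 RPM in DMSO 1, 2 and 3 against 20.4, 49.4 and 18.2 RPM in YH250 1, 2 and 3. YH250 2 was again highest, but every YH250 library was above DMSO 2 (log2 difference 1.13 ± 0.43, SE, limma unadjusted p = 0.027). Without YH250 2 the difference was 0.69. Rsad2, which encodes the antiviral enzyme viperin, did not share that separation and lay between 10.4 and 23.3 RPM in DMSO and between 11.5 and 32.7 RPM in YH250. Its highest values were those of the libraries numbered 1, and the difference was 0.20 ± 0.47 (SE). Isg20, an exonuclease that degrades RNA, had 20.5, 25.1 and 26.3 RPM in DMSO 1, 2 and 3 against 33.1, 36.6 and 36.8 RPM in YH250 1, 2 and 3. The YH250 libraries were close to each other, and the difference of 0.55 ± 0.25 (SE) was much the same at each number (0.67, 0.53 and 0.47) and without YH250 2 (0.53).

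Bst2, which encodes tetherin, a protein that holds budding virus at the cell surface, stood at 64.2, 63.8 and 63.2 RPM in DMSO 1, 2 and 3 against 71.6, 99.7 and 96.2 RPM in YH250 1, 2 and 3. The DMSO libraries were nearly equal, YH250 1 was little above them, and the other 2 YH250 libraries were clearly higher (log2 difference 0.46 ± 0.22, SE). Tetherin is also a surface marker of plasmacytoid dendritic cells in the mouse. The defining marker of that cell, Siglech, had 0.97, 2.29 and 62.9 RPM in DMSO 1, 2 and 3 against 0.48, 12.2 and 66.4 RPM in YH250 1, 2 and 3. Siglech was thus higher in YH250 2 and 3, where Bst2 was higher too, than in YH250 1, and in DMSO 3, where Bst2 was not higher. The part of these cells in the Bst2 level was not tested. Ifi35, whose product partners NMI, had 39.8, 59.7 and 49.9 RPM in DMSO 1, 2 and 3 against 69.7, 68.1 and 63.7 RPM in YH250 1, 2 and 3. The YH250 libraries lay close together above the wider DMSO range (log2 difference 0.44 ± 0.23, SE, and 0.43 without YH250 2). Herc6, the mouse ligase that attaches ISG15 to proteins, had 31.8, 32.4 and 33.3 RPM in DMSO 1, 2 and 3 against 29.0, 11.8 and 31.6 RPM in YH250 1, 2 and 3. Its groups were narrowly apart between DMSO 1 and YH250 3, with YH250 2 far lower, and its difference of -0.53 ± 0.38 (SE) shrank to -0.10 without YH250 2.

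The 2',5'-oligoadenylate synthetase family, whose active enzymes answer double-stranded RNA by activating RNase L, lies on chromosome 5. Not every member of the family is an active enzyme. The 5 of its genes among the 47 members were higher in YH250 at all 3 numbers, as were 16.1% of all tested genes. Of 3 further Oas1 genes measured, Oas1c was lower at all 3 numbers (log2 difference -0.40 ± 0.43, SE), Oas1b was lower in mean (-0.79 ± 0.46, SE) and Oas1g was mixed (0.06 ± 0.42, SE). Oas1a lay between 24.9 and 43.4 RPM in DMSO and between 37.4 and 59.0 RPM in YH250. Oas2 lay between 3.78 and 12.1 RPM in DMSO and between 9.71 and 29.0 RPM in YH250. Oas3 lay between 6.83 and 9.79 RPM in DMSO and between 9.38 and 19.7 RPM in YH250. In each, YH250 2 was the highest library and the groups overlapped. The related Oasl1 lay between 3.19 and 7.65 RPM in DMSO and between 5.46 and 14.8 RPM in YH250. Oasl2 lay between 19.9 and 60.4 RPM in DMSO and between 33.7 and 65.0 RPM in YH250. YH250 2 was again the highest library of both. The log2 difference was 0.47 ± 0.29 (SE) for Oas1a, 0.98 ± 0.53 (SE) for Oas2, 0.62 ± 0.40 (SE) for Oas3, 0.62 ± 0.52 (SE) for Oasl1 and 0.46 ± 0.43 (SE) for Oasl2. Without YH250 2 it was 0.31, 0.54, 0.33, 0.20 and 0.30 in the same order. None of these 5 genes was under an unadjusted p of 0.05 (limma), and Oas2 was with the block (unadjusted p = 0.033). Oas1a has a close copy, Oas1g, which lay between 6.20 and 14.8 RPM, so reads may have been split between them.

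The Ifit genes, whose proteins bind foreign RNA ends, cluster on chromosome 19. Ifit1 lay between 13.5 and 27.5 RPM in DMSO and between 15.8 and 44.3 RPM in YH250. Ifit2 lay between 6.92 and 15.7 RPM in DMSO and between 11.6 and 15.4 RPM in YH250. Ifit3 lay between 3.78 and 11.2 RPM in DMSO and between 7.92 and 19.1 RPM in YH250. Ifit1 was higher in YH250 at every number (log2 difference 0.69 ± 0.44, SE), while Ifit2 and Ifit3 were lower at number 3, with differences of 0.18 ± 0.39 (SE) and 0.89 ± 0.52 (SE). Isg15, the ubiquitin-like modifier, lay between 1.75 and 16.0 RPM in DMSO and between 6.86 and 26.4 RPM in YH250. DMSO 3 was far below the other DMSO libraries, and the difference was 0.75 ± 0.74 (SE) with YH250 2 and 0.32 without it.

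The guanylate-binding proteins, GTPases that gamma interferon induces strongly, lie together on chromosome 3. Gbp2 lay between 25.9 and 38.7 RPM in DMSO and between 28.5 and 84.5 RPM in YH250. Gbp3 lay between 20.4 and 35.0 RPM in DMSO and between 27.1 and 49.1 RPM in YH250. Gbp7, among the 6 most abundant effectors by RPM, had 111, 86.9 and 95.3 RPM in DMSO 1, 2 and 3 against 122, 77.4 and 96.1 RPM in YH250 1, 2 and 3. Gbp2 was higher in YH250 at every number (log2 difference 0.66 ± 0.38, SE), Gbp3 at 2 of 3 (log2 difference 0.38 ± 0.32, SE), and Gbp7 differed in neither direction as a group (log2 difference -0.01 ± 0.24, SE). Gbp2 alone of the 3 was under an unadjusted p of 0.05 with the block (limma, 0.021), and its difference was 0.28 without YH250 2. The GTPase gene Mx1, of which most laboratory mice carry a defective allele, lay between 4.12 and 11.3 RPM in DMSO and between 0.34 and 11.6 RPM in YH250. Mx2 lay between 1.69 and 6.46 RPM in DMSO and between 4.07 and 7.87 RPM in YH250. Mx1 was far lower in YH250 2 than in any other library, and its difference of -0.47 ± 0.83 (SE) turned to 0.57 without that library, whereas Mx2 was highest there (log2 difference 0.59 ± 0.54, SE).

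Ifi27l2a, a small mitochondrial protein gene, had 1.53, 10.4 and 71.9 RPM in DMSO 1, 2 and 3 against 13.0, 46.2 and 83.6 RPM in YH250 1, 2 and 3. Its levels differed more between numbers than between treatments, but each YH250 library exceeded its DMSO partner. Its difference of 1.58 ± 1.34 (SE) had the largest error of all members. With the replicate block its unadjusted p was 0.003 (limma) against 0.29 without. Ifi44 lay between 37.2 and 67.3 RPM in DMSO and between 41.9 and 88.4 RPM in YH250. Xaf1, an antagonist of a caspase inhibitor, lay between 24.5 and 50.8 RPM in DMSO and between 38.2 and 67.6 RPM in YH250. Rtp4, a chaperone of membrane receptors, had 53.3, 97.5 and 83.1 RPM in DMSO 1, 2 and 3 against 94.0, 88.8 and 96.9 RPM in YH250 1, 2 and 3. YH250 2 was highest for Ifi44 and Xaf1, and DMSO 2 was highest for Rtp4, whose DMSO 1 was far below the other 5 libraries. The differences were 0.32 ± 0.35 (SE), 0.43 ± 0.33 (SE) and 0.30 ± 0.26 (SE).

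Several abundant effectors were lower in YH250 or overlapped. Trim30a, a regulator of NF-kB signalling, had 85.4, 91.8 and 124 RPM in DMSO 1, 2 and 3 against 78.2, 81.3 and 109 RPM in YH250 1, 2 and 3. Trim25, which activates RIG-I, lay between 40.6 and 55.0 RPM in DMSO and between 31.0 and 46.9 RPM in YH250. Parp14, an ADP-ribosyltransferase, lay between 29.6 and 43.1 RPM in DMSO and between 20.7 and 33.7 RPM in YH250. These 3 were lower in YH250 at every number, with differences of -0.16 ± 0.25 (SE), -0.31 ± 0.26 (SE) and -0.30 ± 0.29 (SE). Parp9, a relative of Parp14, lay between 26.7 and 40.4 RPM in DMSO and between 26.8 and 47.4 RPM in YH250. Adar, which edits adenosine to inosine in double-stranded RNA, lay between 31.1 and 45.6 RPM in DMSO and between 38.8 and 66.4 RPM in YH250. Samhd1, which depletes deoxynucleotides, had 66.4, 58.2 and 83.3 RPM in DMSO 1, 2 and 3 against 62.4, 52.2 and 92.7 RPM in YH250 1, 2 and 3. The groups overlapped in all 3, with differences of 0.16 ± 0.30 (SE), 0.33 ± 0.28 (SE) and -0.03 ± 0.28 (SE). Exons of Parp9 overlap those of Dtx3l, and exons of Adar those of Chrnb2, on the other strand.

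**Figure D4:**
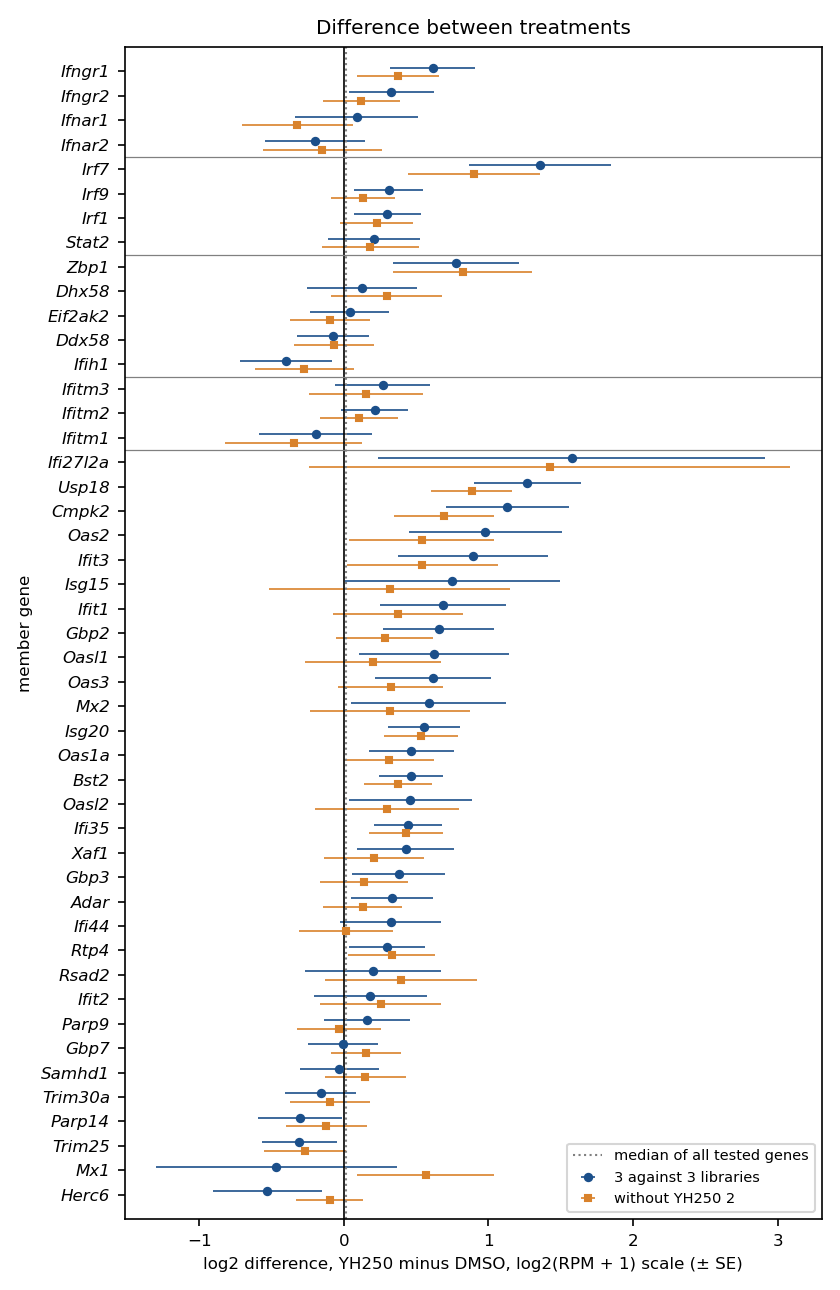
Log2 difference between YH250 and DMSO (horizontal axis, log2(RPM + 1) scale, bars ± SE) for each member (vertical axis, by role), for 3 against 3 libraries (blue circles) and without YH250 2 (orange squares), with the median of all tested genes dotted. For 36 of 47 members the orange point lies closer to 0, and Mx1 and Ifnar1 are among the 6 that change sign.

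YH250 2 held the highest value of 26 of the 47 members (55.3%, against 25.1% of all tested genes) and the lowest of 6 (12.8%, against 25.0%). Those 6 were Mx1, Ifih1, Gbp7, Herc6, Parp14 and Samhd1. Without it the median difference over the members was 0.23 (0.02 over all genes), and 36 of 47 were higher in mean (against 52.1% of all genes), of which 33 were also higher with it. The same 6 members were without overlap on the high side (against 6.5% of all genes) and Herc6 on the low side (against 6.85%). The median was 0.21 for the transcription factors, 0.31 for the effectors, 0.10 for the Ifitm genes, -0.01 for the receptors and -0.07 for the sensors. Signs turned in 6 members: Mx1, Ifnar1, Gbp7, Samhd1, Parp9 and Eif2ak2. Stromal markers were highest in the same library in 3 of 5 genes, Lepr, Cxcl12 and Col3a1. Lepr had 58.2 RPM there against 0.046 to 7.99 elsewhere, and Cxcl12 had 202 RPM against 1.73 to 36.3. Col3a1, below the minimum mean of 1 RPM, had 0.799 RPM against 0 to 0.673. Pdgfrb was not highest there, at 8.79 RPM against 12.6 RPM in DMSO 3 and 12.9 RPM in YH250 3. Col1a1 stayed between 0.291 and 0.749 RPM everywhere. The part of these cells in the interferon gene levels was not tested.

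Markers of other blood cells also differed between groups or numbers. T and NK cell markers summed over 8 genes to 44.5, 93.4 and 472 RPM in DMSO 1, 2 and 3. In YH250 1, 2 and 3 they summed to 114, 184 and 435 RPM. Nkg7 alone made up most of each sum, with a mean of 150 RPM in DMSO and 154 RPM in YH250. Of the 8, 7 were higher in mean log2 level in YH250. Cd3e, with the largest log2 difference of the 8, had 0.23, 0.258 and 9.38 RPM in DMSO and 6.03, 12.6 and 13.5 RPM in YH250. Monocyte and macrophage markers summed to 156, 228 and 513 RPM over 7 genes in DMSO and to 253, 379 and 551 RPM in YH250. Lyz2 and Ly6c2 made up most of each sum. Ly6c2 had 3.38, 4.56 and 246 RPM in DMSO against 30.4, 92.8 and 336 RPM in YH250. By mean log2 level 5 of the 7 were higher in YH250 and 2, Cd68 and Ms4a6c, were lower. Csf1r and Ccr2 were lower in YH250 by mean RPM only. Of the 7, 2 were highest in YH250 2, Lyz2 and Adgre1 (11.4 RPM, against 0 to 0.455 RPM elsewhere). Csf1r (0.080 RPM, against 0.574 to 19.6 RPM) and Ms4a6c (10.7 RPM, against 14.0 to 38.4 RPM) were lowest there. Plasmacytoid dendritic cell markers differed mainly between numbers, as given above. B cell markers summed to 63.4, 256 and 485 RPM over 6 genes in DMSO and to 166, 253 and 740.2 RPM in YH250, with 5 of 5 tested genes higher in mean and Pax5 at 0 to 0.273 RPM. Neutrophil markers summed to 11.3, 20.2 and 110.3 RPM over 5 genes in DMSO and to 30.6, 19.4 and 39.4 RPM in YH250, with 4 of 5 lower in mean, S100a9 (log2 difference -1.24, limma unadjusted p = 0.047) and Camp (-1.51, 0.026) among them. Kit, on which the cells were sorted, had 318, 265 and 213 RPM in DMSO 1, 2 and 3 against 218, 160.1 and 129.6 RPM in YH250 1, 2 and 3 (log2 difference -0.66 ± 0.26, SE, limma unadjusted p = 0.034). Ly6a, which encodes Sca1 and was also sorted on, went the other way. It had 80.9, 155 and 241 RPM in DMSO 1, 2 and 3 against 122, 208 and 319 RPM in YH250 1, 2 and 3. Its log2 difference was 0.47 ± 0.45 (SE) (limma unadjusted p = 0.32, or 0.012 with the replicate block). Hlf was lower at each number (-0.38 ± 0.52, SE, limma unadjusted p = 0.029 with the block). Of the 7 stem cell and sort genes, 2 were higher and 5 lower in mean. The part of other blood cells in the members' levels was not tested.

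**Figure D5:**
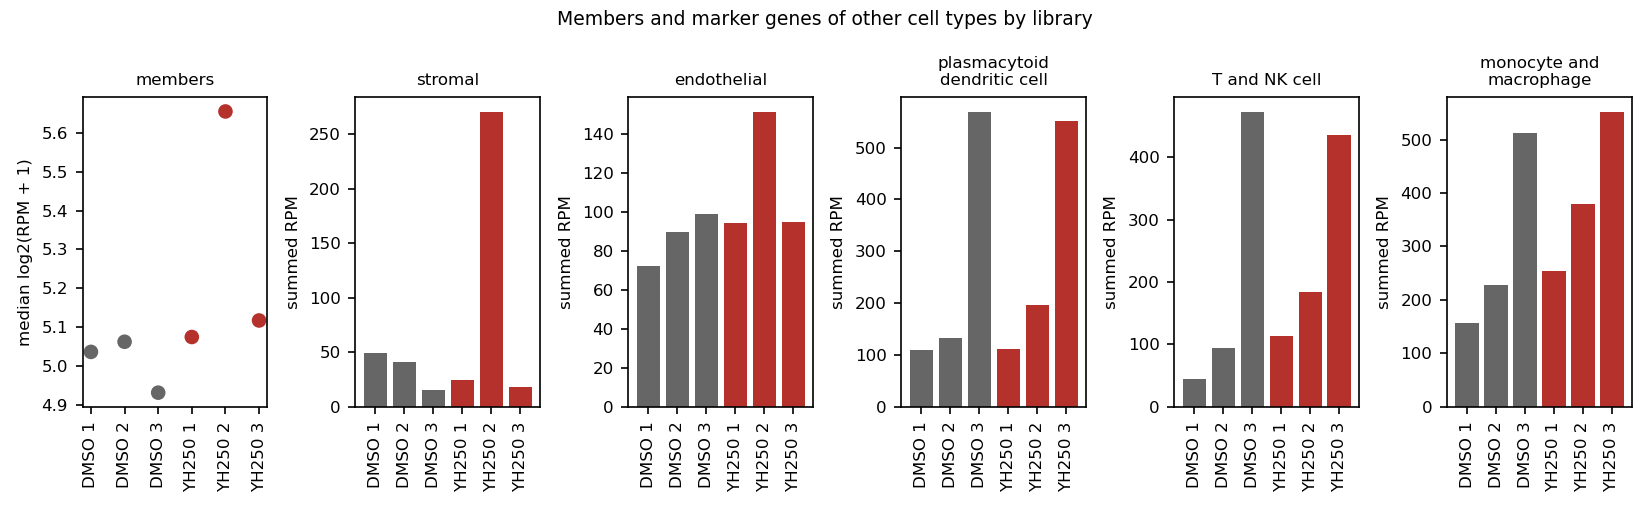
Left panel, median over the 47 members of log2(RPM + 1) in each library (vertical axis, not starting at 0); other panels, summed RPM of the marker genes of 5 other cell types in each library (bars from 0), DMSO in grey and YH250 in red. The members' median is 4.93 to 5.06 in DMSO and 5.07 to 5.66 in YH250, with YH250 2 at the top. That library also has the highest stromal (270.2 RPM) and endothelial (151 RPM) sums. The stromal sum there is mostly Cxcl12 and Lepr, and only 2 of 5 endothelial genes are highest there. The dendritic, T and NK cell sums are highest at number 3.

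Among other genes of the pathway, of 11 interferon ligand genes, 10 were below 1 RPM in every library and 5 were listed at 0 in all 6. Ifng, made by T and NK cells, alone passed the minimum, at 1.04, 0.29 and 5.96 RPM in DMSO 1, 2 and 3 against 1.57, 4.96 and 4.09 RPM in YH250 1, 2 and 3. Its lowest libraries, DMSO 1 and 2, were also those of the lowest T and NK marker sums. YH250 2 had more Ifng than YH250 3 but the lower marker sum (184 against 435 RPM). The part of T and NK cells in the Ifng level was not tested. Ifnb1 was listed at 0 in 5 libraries and at 0.21 RPM in YH250 3. Of 13 kinases, transducers and brakes, 8 were higher and 5 lower in mean, and none was under an unadjusted p of 0.05 (limma). With the replicate block 2 were, both higher (limma, against 4.46% of all genes): Pias1 (log2 difference 0.53, unadjusted p = 0.030) and Ptpn11 (0.63, unadjusted p = 0.049). Jak1 had 181, 224 and 231 RPM in DMSO 1, 2 and 3 against 213, 212 and 198 RPM in YH250 1, 2 and 3 (log2 difference -0.02 ± 0.21, SE), and Tyk2, the kinase bound to IFNAR1, had 14.4, 10.0 and 18.4 RPM in DMSO 1, 2 and 3 against 9.49, 1.36 and 18.7 RPM in YH250 1, 2 and 3 (log2 difference -0.92 ± 0.71, SE), with its low in YH250 2. Socs1, the feedback inhibitor of Janus kinases, had 6.75, 12.0 and 11.2 RPM in DMSO 1, 2 and 3 against 10.6, 16.5 and 15.3 RPM in YH250 1, 2 and 3, higher at each number (log2 difference 0.48 ± 0.37, SE).

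Of 12 tested genes of nucleic acid sensing and interferon induction, 5 were higher and 7 lower in mean. Unc93b1, which escorts nucleic acid sensing Toll-like receptors to endosomes, was the only one under an unadjusted p of 0.05 (limma, 0.034), at 43.0, 60.0 and 61.6 RPM in DMSO 1, 2 and 3 against 62.5, 98.9 and 123 RPM in YH250 1, 2 and 3 (log2 difference 0.74 ± 0.30, SE). Of 46 other interferon-stimulated genes tested, 33 were higher in mean (71.7%, against 51.7% of all genes) with a median difference of 0.18. At all 3 numbers 11 were higher (against 16.1% of all genes) and 3 lower (against 15.0%). Cxcl10, the chemokine that draws T cells, was the only one of these under 0.05 without the block (limma unadjusted p = 0.029), at 0.65, 1.62 and 4.69 RPM in DMSO 1, 2 and 3 against 11.1, 4.40 and 7.71 RPM in YH250 1, 2 and 3 (log2 difference 1.51 ± 0.58, SE). YH250 2, which held the highest Usp18 and Irf7, held the lowest Cxcl10 of the YH250 libraries, just under DMSO 3. With the replicate block 4 were higher at an unadjusted p under 0.05 (limma, against 4.46% of all genes), Lgals3bp (0.010), Shisa5 (0.012), Lgals9 (0.014) and Cxcl10 (0.015). With it 1 was lower (against 2.99% of all genes), Nlrc5 (0.044). No gene of these lists was called at an adjusted p under 0.05 with or without the block (limma).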

How the data were processed

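Libraries of polyA RNA amplified with the SMARTer Ultra Low Input kit were sequenced as single-end reads, per the labels' protocols. CASAVA 1.8.2, TopHat2 2.0.8 and Partek are named, in no order, in the submitters' processing notes, with the build mm10. The deposited table holds 1 signal value per Ensembl gene and library, at least 1 everywhere. Its low values lie near steps that depend on the library alone, so each deposited signal value was read as RPM (reads scaled to a common library size) plus 1, which is an inference. The share of low values within 0.1 of a whole read was 60.8% to 68.9%, so no count model was used. Gene values summed to 70.0% to 95.9% of that size. How multi-mapping reads, strand and overlapping genes were counted was not stated in any source used here, and 7 members share exon sequence with a gene on the same strand and 10 with a gene on the other strand (GENCODE release M21).

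Levels were RPM after removing the 1, and differences were taken on log2(RPM + 1). The main test was limma 3.58.1 in R 4.3.3 (moderated, with trend and robust settings, two-sided), with Benjamini-Hochberg adjustment over genes averaging 1 RPM or more, without a block. It was tested on simulated data. Libraries of the same number deviated together (correlations of deviations from the group means of 0.55, 0.26 and 0.70 at numbers 1, 2 and 3, against 0.14 or less for unlike numbers), so the model with the replicate number as a block is given where it moves a count of members or pathway genes. The members, roles, marker lists and pathway lists were chosen with earlier results of these data known. All members are named. Receptors, transcription factors, RNA sensors, Ifitm genes, effectors under an unadjusted p of 0.05 or without overlap, and the 6 effectors of largest mean are given by library, and other effectors by range (Ifi27l2a by library, chosen after its values were seen). No test was made over the list. The alternatives were 15 planned settings and 3 added after seeing the data. Promoters were RefSeq's. Some genes of the marker and pathway lists are not reported here by name.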

Additional observations from a re-analysis of the deposited data

How the results depend on the processing

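No member was called at an adjusted p under 0.05 (limma) under any of the 15 planned or 3 added alternatives. Over all tested genes, the replicate block without number 2 called 7 of 13597 at that threshold, and every other setting called 0. The members' median log2 difference stayed between 0.23 and 0.43, with 34 to 37 of 47 higher in YH250 (35 of 46 with a minimum mean of 5 RPM). With the replicate block, members higher at an unadjusted p under 0.05 went from 3 to 10, and the block changed no adjusted call. The 3 added settings were chosen after seeing the data. Without both libraries numbered 2, 17 members were higher without overlap in place of 6 (11.3% of all genes in place of 3.79%), and the replicate block without number 2 gave 17 likewise, with 10 at an unadjusted p under 0.05 (4.23% of all genes). Without both libraries numbered 3 the counts were 8 at an unadjusted p under 0.05 (2.13% of all genes) and 21 without overlap (19.7%). Leaving out 1 library at a time gave 1 to 6 members at an unadjusted p under 0.05 and 6 to 17 without overlap; fewer libraries make a separation commoner in all genes too. With every library rescaled to the same sum over genes, 4 members were higher without overlap, a count whose share over all genes was not computed. At an unadjusted p under 0.05 (limma), 2 members were higher. Over all 14009 genes then tested, 73 were higher and 172 lower at that p, against 127 and 104 of 13597 as deposited. The cause was not tested. Depth limits the lowest members, such as Mx2, most.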

Other observations

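Among the 46 other interferon-stimulated genes tested, 13 were lower in mean in YH250. Of them, 3 were lower at all 3 numbers (against 15.0% of all tested genes): Nlrc5, Oas1c and Ifi203. Nlrc5, the activator of MHC class I genes, lay at 36.6, 23.7 and 36.8 RPM in DMSO 1, 2 and 3 against 28.3, 15.7 and 22.4 RPM in YH250 1, 2 and 3, a log2 difference of -0.54 ± 0.32 (SE, limma unadjusted p = 0.13, or 0.044 with the replicate block). Oas1b, an inactive relative of Oas1a at the same locus, had the lowest difference of this list, -0.79 ± 0.46 (SE, limma unadjusted p = 0.12), and lay at 13.2, 14.1 and 6.43 RPM in DMSO 1, 2 and 3 against 6.51, 3.62 and 7.90 RPM in YH250 1, 2 and 3. Ifi203 had a difference of -0.29 ± 0.25 (SE).

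Near or overlapping partners of members gave these values. Ifit3b, the near copy of Ifit3, had a difference of 0.57 ± 0.73 (SE); it was listed at 0 in YH250 2, the library in which Ifit3 was highest at 19.1 RPM, and lay at 0.067 to 5.83 RPM in the other 5. Dtx3l, which shares exon sequence with Parp9 on the other strand, had a difference of 0.07 ± 0.27 (SE), against 0.16 for Parp9.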
